A study of Mus musculus with 4 samples.

Results

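The BCL2 family genes described here were the 10 genes Bcl2, Bcl2l1, Mcl1, Bcl2a1b, Bcl2a1d, Bcl2l11, Bax, Bak1, Bid and Bad, taken by symbol from the 23136 genes listed in a deposited table of blood expression. All 10 had values in all 4 libraries. The table came from RNA sequencing of whole blood of C57BL/6 mice labelled adult, a group the study treats as aged animals. The 2 control libraries (Ctrl 1 and Ctrl 3) were from mice that received PBS, the salt solution used as vehicle, for 30 days. The 2 treated libraries (Nar 1 and Nar 3) were from mice that received naringenin, a flavonoid found in citrus fruit, for 30 days. No genetic change was labelled in either group, and the comparison asked what naringenin did to the blood transcriptome. Nothing in the labels says that the libraries of a group came from separate mice, so p-values measured only the spread between these samples.

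Proteins of the BCL2 family decide at the outer mitochondrial membrane whether a cell dies by apoptosis. Survival members (Bcl2, Bcl2l1, Mcl1 and the Bcl2a1 copies) bind and hold back the effectors Bax and Bak1, which otherwise open pores that release cytochrome c, and BH3-only members (Bcl2l11, Bid and Bad) carry death signals by binding the survival members or, for some, by activating the effectors directly. In blood, Bcl2l1, which encodes BCL-XL, is best known for keeping late red cell precursors and platelets alive, whereas Mcl1 and Bcl2a1 are known for the survival of neutrophils.

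Expression was given as FPKM, fragments counted per length of transcript and per size of library, a unit that allows levels to be compared between genes because it is corrected for length. Haemoglobin genes made up 92.6% to 96.4% of summed FPKM in the 4 libraries, and the median FPKM of the 5339 genes with a mean of at least 0.5 was 1.85 and 1.97 in Ctrl 1 and Ctrl 3 against 0.89 and 0.74 in Nar 1 and Nar 3. Steps in the values of short genes gave an approximate depth of 21300000 to 22700000 fragments for each library. Fold changes below are Nar against Ctrl on the log2(FPKM + 0.1) scale, which understates changes of low genes. A gene was called at an adjusted p under 0.05 in limma, with Benjamini-Hochberg adjustment over the 5339 genes.

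In control blood Bcl2l1 was the highest of the 10 genes by FPKM, followed by Mcl1, Bak1, Bid, Bax and Bcl2a1b, and the ranges of the 2 control libraries did not overlap between neighbours in that order. Bad, Bcl2l11 and Bcl2 came next, with overlapping ranges between 0.52 and 0.84 FPKM, and Bcl2a1d was lowest at 0 to 0.54 FPKM, a range that reached that of Bcl2. In naringenin blood Bcl2l1 and Mcl1 again came first, followed by Bid, and Bak1 (0.66 to 1.15 FPKM) was no longer separate from Bax (1.01 to 1.06 FPKM). The remaining order after naringenin was Bad, Bcl2a1b, Bcl2, Bcl2l11 and Bcl2a1d. From Bax down to Bcl2l11 each gene overlapped in range with at least 1 neighbour in that order, and Bcl2a1d (0.06 to 0.11 FPKM) was separate from Bcl2l11.

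**Figure D1:**
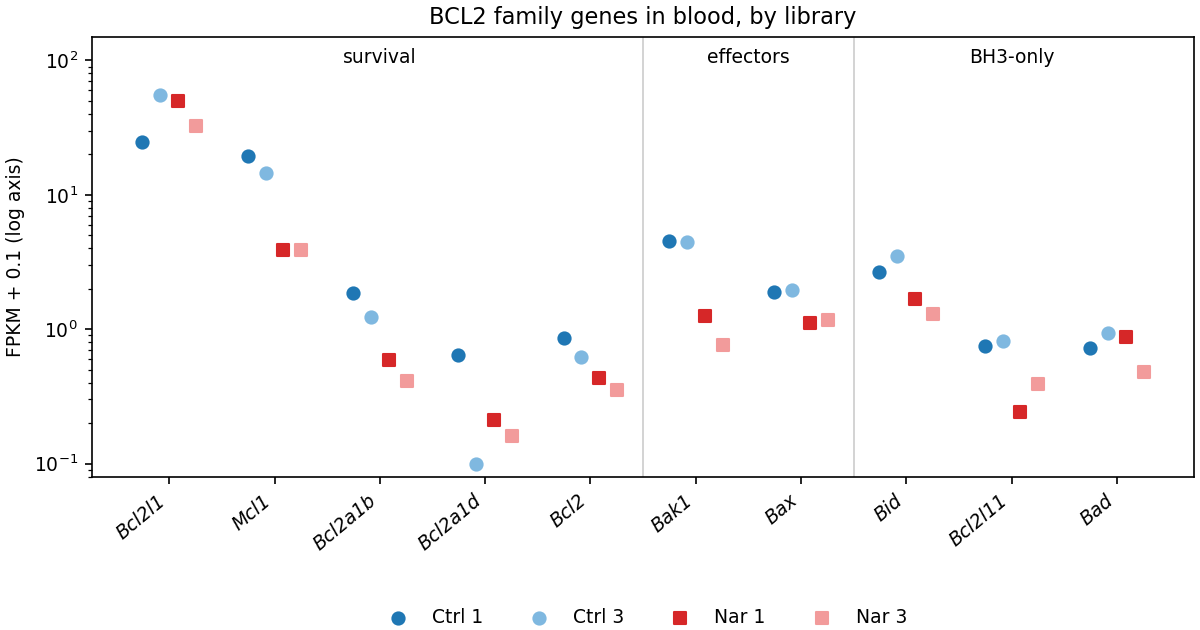
Level of each of the 10 BCL2 family genes in each library as FPKM + 0.1 on a log axis, grouped by role, with circles for the 2 Ctrl and squares for the 2 Nar libraries. For Bcl2l1 the squares lie between the circles, whereas for Mcl1 both squares (3.81 and 3.78 FPKM before the 0.1 is added) lie below both circles (19.3 and 14.32 FPKM).

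Bcl2l1 (gene ID 12048, GRCm38.p6 chr2:152758732-152833803) was at 24.65 and 55 FPKM in Ctrl 1 and Ctrl 3 and at 49.4 and 32.52 FPKM in Nar 1 and Nar 3. Both naringenin values fell between the 2 control values, and the controls differed more from each other than the groups did. The means were 39.8 ± 21.5 FPKM (SD, n = 2) in Ctrl and 41 ± 11.9 FPKM (SD, n = 2) in Nar. The log2 fold change was 0.12 (SE 0.578, 95% interval -1.18 to 1.43, limma adjusted p = 0.858), so a difference was not detected and the interval left room for more than a doubling in either direction. Its sign depended on single libraries: the log2 fold change was -0.46 without Ctrl 1 and -0.18 without Nar 1, with no call in either case. The scale mattered as well. 95% of the 5339 tested genes had a lower log2 fold change than Bcl2l1, since the median of all tested genes was -1.07, and with libraries scaled by median of ratios, which brings that median to -0.06, Bcl2l1 stood at 1.23 (adjusted p = 0.402).

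Mcl1 (gene ID 17210, GRCm38.p6 chr3:95656944-95663179), a short-lived survival protein on which neutrophils depend, was at 19.3 and 14.32 FPKM in Ctrl 1 and Ctrl 3 and at 3.81 and 3.78 FPKM in Nar 1 and Nar 3. Both naringenin libraries lay well below both controls, and they were nearly equal to each other. Mcl1 fell, from 16.8 ± 3.52 to 3.8 ± 0.0212 FPKM (SD, n = 2 each), a log2 fold change of -2.10 (SE 0.467, 95% interval -3.16 to -1.05, limma adjusted p = 0.0167). The direction was the same without any one library, at -2.32 to -1.89, with an adjusted p of 0.0826 to 0.144. In such fits the group left with 1 library is assumed to vary like the other group, and 0% to 4.85% of all tested genes were called, so a lost call there says little about a single gene. Under median-of-ratios scaling the log2 fold change was -1.01 (adjusted p = 0.365). Without the minimum FPKM it was -2.10 and not called (limma adjusted p = 0.113), a setting in which 0 of 16382 genes were called. Of all tested genes, 6.24% had a lower log2 fold change than Mcl1.

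The promoter windows of these 2 genes are given because the comparison of red cell and neutrophil survival genes turns on this pair. Each runs from 250 bases before to 50 bases after a transcription start listed by RefSeq (GRCm38.p6), on the strand of the gene. The Bcl2l1 window, chr2:152828440-152828739 on the minus strand, is that of 1 of its 3 listed starts and was chosen because it holds the GATA motif AGATAA, in capitals, at -41 from the start. The Mcl1 window, chr3:95658471-95658770 on the plus strand, holds the ETS motif CCGGAAG, in capitals, at -63 from its single listed start.
Bcl2l1: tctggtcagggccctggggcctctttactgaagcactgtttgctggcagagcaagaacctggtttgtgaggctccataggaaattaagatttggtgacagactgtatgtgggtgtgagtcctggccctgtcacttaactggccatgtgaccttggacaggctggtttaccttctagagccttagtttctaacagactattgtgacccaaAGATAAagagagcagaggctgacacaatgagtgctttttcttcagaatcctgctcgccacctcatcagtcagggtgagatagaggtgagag
Mcl1: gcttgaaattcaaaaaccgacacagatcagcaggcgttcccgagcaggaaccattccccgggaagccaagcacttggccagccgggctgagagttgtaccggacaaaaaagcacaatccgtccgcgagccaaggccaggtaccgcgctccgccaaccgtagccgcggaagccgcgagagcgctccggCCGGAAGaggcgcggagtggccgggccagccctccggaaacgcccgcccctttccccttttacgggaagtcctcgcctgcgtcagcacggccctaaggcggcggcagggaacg
Both strands were searched, and among 32851 promoter windows of the same length 11.2% held AGATAA and 8.86% held CCGGAAG. The STAT motif TTCNNNGAA, found in 8.3% of all windows, was in no window of the 10 genes. Of the other Bcl2l1 starts, 1 had an NF-kappaB motif (8.46% of all windows) at -242 and 1 had CCGGAAG at 34 after the start, and CCGGAAG also stood at -105 from 1 of the 2 starts of Bcl2l11. These matches describe letters only and were not tested for binding.

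Bcl2a1b (gene ID 12045, GRCm38.p6 chr9:89199273-89207838) and Bcl2a1d (gene ID 12047, chr9:88723288-88731850) encode near-identical forms of A1, a survival protein of neutrophils and other leukocytes. Their coding sequences of 519 bases differed at 6 positions, an identity of 98.8%, with a longest identical run of 217 bases. The first 60 coding bases are shown because they carry 2 of the 6 differences, in capitals (GENCODE M21, GRCm38), and no other stretch of that length carries more. How many reads can tell the copies apart was not measured.
Bcl2a1b: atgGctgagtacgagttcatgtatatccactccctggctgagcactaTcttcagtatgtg
Bcl2a1d: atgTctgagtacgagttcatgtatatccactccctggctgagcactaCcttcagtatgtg
Among the 4 copies listed (Bcl2a1a, Bcl2a1b, Bcl2a1c and Bcl2a1d) coding identity ranged from 95.9% to 98.8%. Values of single copies are therefore uncertain, because reads may have been assigned to the wrong copy, and the sum over the 4 copies is given as well.

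Bcl2a1b was at 1.75 and 1.14 FPKM in Ctrl 1 and Ctrl 3 and at 0.49 and 0.31 FPKM in Nar 1 and Nar 3. Both naringenin libraries were below both controls. Bcl2a1b was called lower, with a log2 fold change of -1.62 (SE 0.389, 95% interval -2.50 to -0.74, limma adjusted p = 0.0201). It reached the minimum of 0.5 FPKM only through the controls (means 1.44 and 0.4 FPKM), so it had to differ to be tested. Without that minimum its log2 fold change was still -1.62 and it was not called (limma adjusted p = 0.113). As 0 of 16382 genes were called in that setting, the lost call says nothing about this gene. Without any one library it was -1.91 to -1.33 (adjusted p 0.063 to 0.14, with the other group alone giving the spread), and with a pseudocount of 1 it was -0.80 and still called (adjusted p = 0.0316). It also lost its call without haemoglobin genes (-1.15, adjusted p = 0.202) and under median-of-ratios scaling (-0.66, adjusted p = 0.496). Bcl2a1d was at 0.54 and 0 FPKM in Ctrl 1 and Ctrl 3 and at 0.11 and 0.06 FPKM in Nar 1 and Nar 3, too low for the test, and the groups overlapped. Its log2 difference of -0.46 had no stable sign, at 0.31 with a pseudocount of 0.01, 0.04 under median-of-ratios scaling and 0.87 without Ctrl 1. At the approximate depth of these libraries, the Bcl2a1d values stood for about 10, 0, 2.2 and 1.1 fragments in Ctrl 1, Ctrl 3, Nar 1 and Nar 3, and those of Bcl2a1b for about 30.7, 19.8, 9.1 and 5.6 fragments. The sum over the 4 copies was 2.54 and 1.46 FPKM in Ctrl 1 and Ctrl 3 against 0.68 and 0.45 FPKM in Nar 1 and Nar 3. Bcl2a1b held 68.9% to 78.1% of that sum in all 4 libraries, and both naringenin sums were below both controls.

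Bcl2 itself (gene ID 12043), the founding survival gene and one used by lymphocytes, was at 0.76 and 0.52 FPKM in Ctrl 1 and Ctrl 3 and at 0.33 and 0.25 FPKM in Nar 1 and Nar 3. Its mean of 0.465 FPKM was just under the minimum for the test. Both naringenin values were below both controls, and the untested log2 difference of -0.91 was smaller in size than the median of all tested genes. It was -0.34 with a pseudocount of 1, -0.48 without haemoglobin genes and -0.02 under median-of-ratios scaling.

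The comparison of most interest was of Bcl2l1, known in red cell precursors, with Mcl1 and Bcl2a1, known in neutrophils. The ratio of Bcl2l1 to Mcl1 FPKM was 1.28 and 3.84 in Ctrl 1 and Ctrl 3 and 13 and 8.6 in Nar 1 and Nar 3. The ratio of Bcl2l1 to the summed Bcl2a1 copies was 9.7 and 37.7 in the controls and 72.6 and 72.3 after naringenin. Both ratios were higher in each naringenin library than in either control, while Ctrl 1 and Ctrl 3 differed from each other by several-fold, mostly through Bcl2l1 itself. These ratios are within a library and do not depend on how libraries are scaled.

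On the log2 scale the difference of Mcl1 from Bcl2l1 changed by -2.22. In the limma fit on differences from Bcl2l1 this had an SE of 0.498 and an adjusted p of 0.000439, and Bak1 fell further than Bcl2l1 as well, with a change of -2.32 (adjusted p = 0.0085). These were 2 of the 6 other tested members (33.3%). Of all 5338 genes in that fit, 13.4% were called as falling further than Bcl2l1 and 0.0937% as falling less or rising more. That fit shares the error of Bcl2l1 among all genes and gave an SE below that of Bcl2l1 alone (0.578). With the errors of both genes taken from their own fits, chosen after the data were seen, the SE for Mcl1 was 0.743 (95% interval -3.79 to -0.66, adjusted p = 0.126) and that for Bak1 was 0.704 (95% interval -3.81 to -0.83, adjusted p = 0.0916), and neither was called, beside 2.25% of all genes. In the fit on differences, Mcl1 stood at -1.43 without Ctrl 1, -3.02 without Ctrl 3, -1.93 without Nar 1 and -2.52 without Nar 3. In each of these fits the spread came only from the group that kept 2 libraries. The controls differed in Bcl2l1 (24.65 and 55 FPKM), and with 1 control left out that difference did not enter the spread. These fits therefore cannot decide whether Mcl1 keeps its call. Without the trend both Mcl1 (-2.22, limma adjusted p = 0.0957) and Bak1 lost their calls against Bcl2l1. Bak1 also lost its call with the replicate block and with a pseudocount of 1.

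The other members differed less from Bcl2l1. Bcl2a1b changed against it by -1.74 on the log2 scale, but this was not called in either form of the test (adjusted p = 0.128 and 0.185). The summed Bcl2a1 copies stood at -3.23 and -5.14 against Bcl2l1 on the log2 scale in Ctrl 1 and Ctrl 3 and at -5.99 and -5.89 in Nar 1 and Nar 3, a change of -1.75 that was -0.80 without Ctrl 1, -2.71 without Ctrl 3 and -1.04 with a pseudocount of 1. Its exact two-sided permutation p was 0.33, the smallest that 2 libraries against 2 allow. The ratio of Mcl1 to the summed Bcl2a1 copies was 7.6 and 9.81 in the controls and 5.6 and 8.4 after naringenin, and the groups overlapped (exact permutation p = 0.67, in a design that cannot go below 0.33).

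As a share of the FPKM of the 5 survival members, Bcl2l1 made up 52.4% and 77.5% in Ctrl 1 and Ctrl 3 and 91.2% and 88.1% in Nar 1 and Nar 3. Mcl1 made up 41.1% and 20.2% in the controls and 7.04% and 10.2% after naringenin. Bcl2a1b, Bcl2a1d and Bcl2 together were a small remainder in each library. The sum of the 5 was 47 and 71 FPKM in the controls and 54.1 and 36.9 FPKM after naringenin, so the totals overlapped between groups while the shares of Bcl2l1 and Mcl1 did not.

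**Figure D2:**
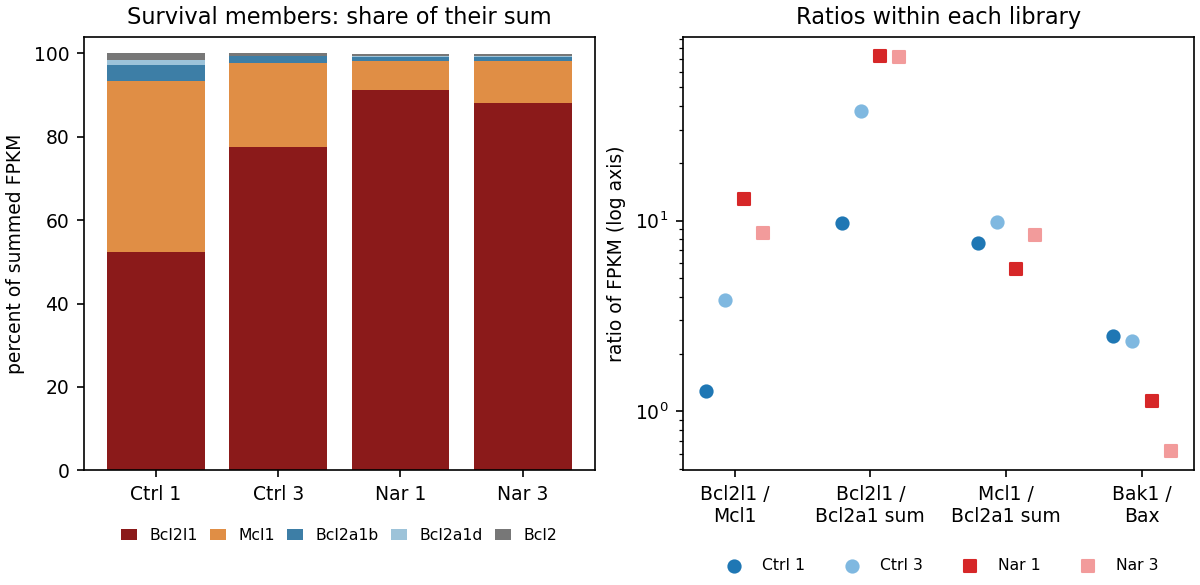
Left, share of each of the 5 survival genes in their summed FPKM, in percent, for each library; right, FPKM ratios within each library on a log axis. Bcl2l1 takes 52.4% and 77.5% in the Ctrl bars and 91.2% and 88.1% in the Nar bars, and the ratios of Bcl2l1 to Mcl1 and to the summed Bcl2a1 copies are higher in each Nar library than in either Ctrl library.

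Markers of blood cell types moved between the libraries too. In bulk blood, fewer cells of a type and less RNA per cell cannot be told apart. Of the 15 neutrophil markers, all with values, 13 were tested and 13 were called lower, beside 39.6% of all tested genes. Camp and Ltf reached the minimum of 0.5 FPKM only through the controls (naringenin means 0.45 and 0.485 FPKM), so they had to differ to be tested. The summed FPKM of the 15 markers was 1750 and 1460 in Ctrl 1 and Ctrl 3 against 106 and 166 in Nar 1 and Nar 3. The neutrophil receptor gene Csf3r, for example, was at 37.07 and 22.88 FPKM in the controls and at 2.49 and 3.2 FPKM after naringenin. Under median-of-ratios scaling 3 of the 13 (Ngp, Camp and Ltf) were called lower, beside 0.356% of all tested genes, and the median of the 13 was -2.47. The median log2 fold change of the tested neutrophil markers on the deposited scale, -3.58, was larger in size than that of Mcl1 or Bcl2a1b, and their part in the results for these 2 genes was not tested. Monocyte markers, where A1 is also known, had 4 of 7 called lower, with sums of 357 and 459 FPKM in the controls and 157 and 101 FPKM after naringenin. That count stands beside 39.6% of all tested genes, and under median-of-ratios scaling the 4 calls were lost and the median was -0.48.

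Erythroid markers had values for 15 of the 16 genes and 12 were tested, with 0 called in limma and 0 at an unadjusted p under 0.05, and their sum, mostly of the haem enzyme gene Alas2, was 6160 and 7200 FPKM in Ctrl 1 and Ctrl 3 and 6770 and 6670 FPKM in Nar 1 and Nar 3. Their median log2 fold change was 0.37, and 1.45 under median-of-ratios scaling. Slc4a1, the anion exchanger of red cells, was at 40.35 and 93.19 FPKM in the controls and at 101.03 and 61.91 FPKM after naringenin, and like Bcl2l1 it was lowest in Ctrl 1. Platelet markers had 0 of 6 called in limma and 1 at an unadjusted p under 0.05. For 5 of the 6 both naringenin libraries were below both controls, beside 78.3% of all tested genes. These markers were highest in Ctrl 3, where their sum was 2110 FPKM, against 667 in Ctrl 1, 556 in Nar 1 and 434 in Nar 3. Ctrl 3 was also the library with the highest Bcl2l1, and the part of platelet RNA in that value was not tested. Lymphocyte markers had no call among 6 B cell and 6 T cell genes tested (0 and 1 at an unadjusted p under 0.05). Among 6 NK cell genes 1 was called lower, 4 had an unadjusted p under 0.05 and 5 had both naringenin libraries below both controls. Of all 5339 tested genes, 39.6% were called lower and 3036 had an unadjusted p under 0.05 in limma. Both naringenin libraries were below both controls for 78.3% of them. Ncr1, Klrb1c and Klrk1 reached the minimum of 0.5 FPKM only through the controls (naringenin means 0.325, 0.33 and 0.435 FPKM).

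**Figure D3:**
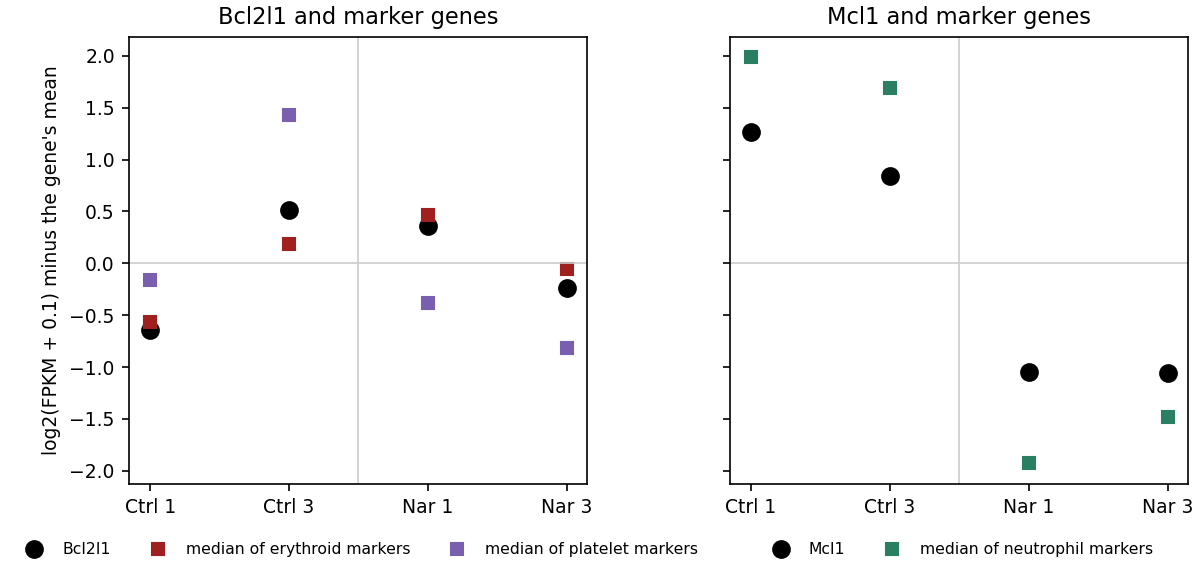
Log2(FPKM + 0.1) of Bcl2l1 (left) and Mcl1 (right) minus the mean of the gene over the 4 libraries, with the median of the markers of red cells, platelets and neutrophils treated in the same way. Bcl2l1 lies at -0.64 in Ctrl 1 and 0.52 in Ctrl 3, and Mcl1 lies above 0 in both Ctrl and below 0 in both Nar libraries, as do the neutrophil markers.

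Of the 2 effectors, Bak1 was called lower and Bax was not, and their 95% intervals overlapped. Bak1 (gene ID 12018, GRCm38.p6 chr17:27019812-27028627), which sits in the mitochondrial membrane, was at 4.41 and 4.33 FPKM in Ctrl 1 and Ctrl 3 and at 1.15 and 0.66 FPKM in Nar 1 and Nar 3. The controls were nearly equal and both naringenin libraries lay far below them. Bak1 fell, from 4.37 ± 0.0566 to 0.905 ± 0.346 FPKM (SD, n = 2 each), a log2 fold change of -2.20 (SE 0.402, 95% interval -3.11 to -1.29, limma adjusted p = 0.00892), of which 5.56% of all tested genes had a lower value. With 1 library left out and the spread taken from the other group, it was -2.56 without Nar 1 (adjusted p = 0.0411), -2.18 without Ctrl 1 (adjusted p = 0.0826), -2.21 without Ctrl 3 (adjusted p = 0.0904) and -1.84 without Nar 3 (adjusted p = 0.114). Bak1 was not called without the minimum (-2.20, adjusted p = 0.113), where 0 of 16382 genes were called, or under median-of-ratios scaling (-1.15, adjusted p = 0.204).

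Bax (gene ID 12028, chr7:45461695-45466903), which moves from the cytosol to mitochondria when activated, was at 1.78 and 1.86 FPKM in Ctrl 1 and Ctrl 3 and at 1.01 and 1.06 FPKM in Nar 1 and Nar 3. The groups did not overlap, yet the log2 fold change of -0.76 (SE 0.342, 95% interval -1.53 to 0.01, limma adjusted p = 0.0922) did not pass the test, and its sign turned under median-of-ratios scaling (0.28, adjusted p = 0.843). The ratio of Bak1 to Bax FPKM was 2.48 and 2.33 in the controls and 1.14 and 0.623 after naringenin. It was lower in both naringenin libraries, and the exact permutation p of 0.33 was the smallest possible. The ratio of Bax to Bcl2, often used as a balance of death and survival, was 2.34 and 3.58 in the controls and 3.06 and 4.24 after naringenin, and the groups overlapped (exact permutation p = 0.67).

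None of the BH3-only members was called in limma. Bid (gene ID 12122, chr6:120893119-120917062), which caspase-8 cleaves to carry death receptor signals to mitochondria, was at 2.56 and 3.4 FPKM in Ctrl 1 and Ctrl 3 and at 1.58 and 1.2 FPKM in Nar 1 and Nar 3. Both naringenin values were below both controls, but the log2 fold change of -1.05 (SE 0.388, 95% interval -1.92 to -0.17) had a limma adjusted p of 0.0567 (unadjusted p = 0.0245). It was close to the median of all tested genes and stood at 0.01 under median-of-ratios scaling. Bcl2l11 (gene ID 12125, chr2:128126038-128162547), which encodes BIM, was at 0.65 and 0.72 FPKM in the controls and at 0.14 and 0.29 FPKM after naringenin, too low for the test, with a log2 difference of -1.36 and no overlap between groups. That difference was -0.47 with a pseudocount of 1, -0.92 without haemoglobin genes and -0.49 under median-of-ratios scaling. Bad (gene ID 12015, chr19:6941861-6951905), whose protein is held inactive by phosphorylation, was at 0.63 and 0.84 FPKM in the controls and at 0.78 and 0.38 FPKM after naringenin. Its groups overlapped, and its log2 fold change of -0.35 (SE 0.423, 95% interval -1.31 to 0.61, limma adjusted p = 0.478) was 0.13 after haemoglobin genes were removed and 0.60 under median-of-ratios scaling.

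Counted together, 7 of the 10 members reached the minimum mean FPKM, 3 of these 7 (42.9%) were called lower (Mcl1, Bcl2a1b and Bak1) and 0 were called higher in limma, where 4 had an unadjusted p under 0.05. Among all 5339 tested genes 39.6% were called lower and 0.187% higher, and 3036 had an unadjusted p under 0.05. The share of called members was thus near that of the whole table, and 1 of the 3, Bcl2a1b, was tested only through its control values. Both naringenin libraries were below both controls for 5 of the 7 tested members, beside 78.3% of all tested genes, and for 7 of all 10, beside 52.7% of all genes with a value above 0. For 0 members were both naringenin libraries above both controls, beside 1.27% of all tested genes. The median log2 fold change of the 10 members was -0.98 and that of the 7 tested was -1.05, beside -1.07 for all tested genes. With median-of-ratios scaling the median of the 10 members was 0.00, 0 of the 7 were called (1 had an unadjusted p under 0.05 in limma), and 0.356% of all genes were called lower and 0.112% higher. Bcl2l1, Bad, Bcl2a1d, Bcl2, Bax and Bid lay above the median of all tested genes and Bak1, Mcl1, Bcl2a1b and Bcl2l11 below it, as a description, and of the 7 tested members only Bak1 had a 95% interval that did not include it.

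**Figure D4:**
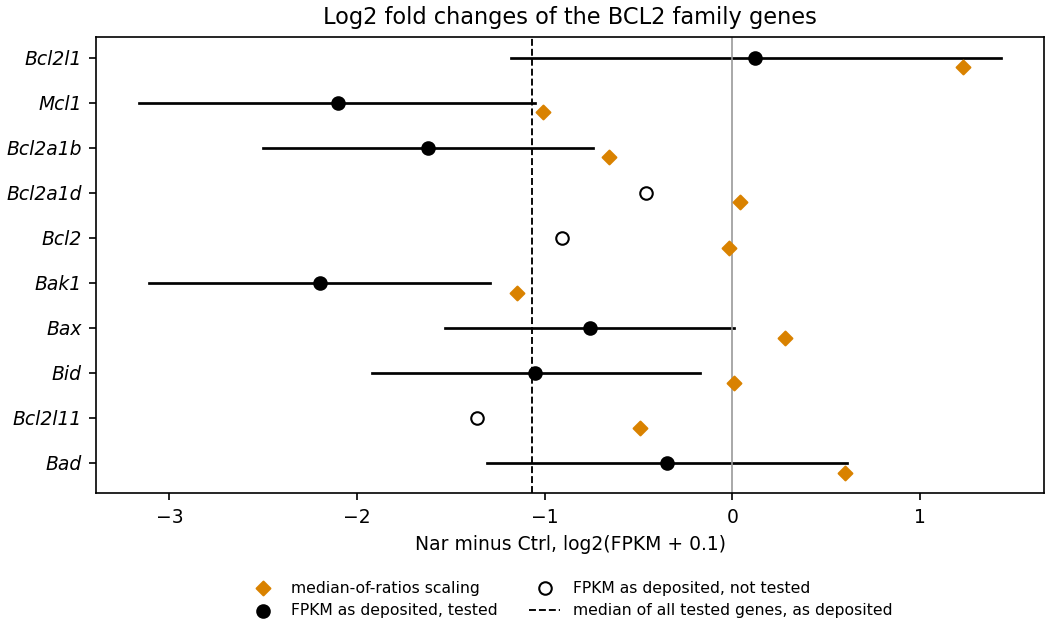
Log2 fold change of Nar against Ctrl for the 10 members on the log2(FPKM + 0.1) scale, with 95% intervals for the 7 tested genes (filled points), open points for untested genes, diamonds for median-of-ratios scaling and a dashed line at the median of all tested genes (-1.07). Mcl1 (-2.10) and Bak1 (-2.20) lie farthest below the line and Bcl2l1 (0.12) lies above it.

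Genes whose pattern over the 4 libraries was closest to that of Bcl2l1 were Usp25, Abhd16a and Riok3, at a root mean square distance of 0.0225, 0.0492 and 0.0591 on the log2 scale. Riok3, for example, was at 53.16 and 112.09 FPKM in Ctrl 1 and Ctrl 3 and at 96.67 and 70.24 FPKM in Nar 1 and Nar 3, with Ctrl 1 lowest and Ctrl 3 highest as for Bcl2l1. Closest to Mcl1 were Tnfrsf21 (0.024), Rab11fip1 (0.052) and Notch1 (0.052). These 3 genes were at 0.79 to 1.2 FPKM in the controls and at 0.14 to 0.16 FPKM after naringenin, near the pseudocount of 0.1. They reached the minimum of 0.5 FPKM only through the controls. With 4 libraries from the same table, such likeness describes these samples only.

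The wider apoptosis machinery was examined in 7 lists of 57 genes, of which 30 were tested. Of these, 11 (36.7%) were called lower and 0 higher in limma, again near the 39.6% of all tested genes, and their median log2 fold change was -1.11. Under median-of-ratios scaling that median was -0.08 and each of the 11 lost its call, with log2 fold changes of -0.82 (Akt1) to 0.00 (Cycs) and adjusted p of 0.45 to 0.998. The falls named below are thus on the deposited scale, and those of Cycs, Casp2, Huwe1, Rela and Birc3 (-0.99 to -1.20) lay close to the median of all tested genes, -1.07. Casp2, Fas and Huwe1 reached the minimum of 0.5 FPKM only through the controls, so their calls give no support to the counts. Among other BCL2 family genes only Bbc3 and Bnip3l were high enough to be tested, and neither was called, with Bbc3 at -1.11 (adjusted p = 0.0679). Bnip3l, which marks mitochondria for removal as red cells mature, was far higher than any of the 10 members, at 385.13 and 462.66 FPKM in Ctrl 1 and Ctrl 3 and at 444.1 and 331.07 FPKM in Nar 1 and Nar 3, with overlapping groups and a log2 fold change of -0.14 (adjusted p = 0.777) that turned to 0.97 under median-of-ratios scaling (adjusted p = 0.345). Bcl2l15 was listed at 0 in all 4 libraries.

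Downstream of the effectors, Cycs, the cytochrome c that Bax and Bak1 release, fell by 0.99 on the log2 scale (adjusted p = 0.0464), and Casp2 fell by 1.07 (adjusted p = 0.0489), the 2 called of 4 tested apoptosome and caspase genes. Vdac2, a membrane channel known to bind Bak1, fell by 1.52 (adjusted p = 0.0223), the 1 called of 3 channel genes. Birc3, an inhibitor of apoptosis, was the 1 called of 5 in its list and fell by 1.20 (adjusted p = 0.0457).

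Upstream of Bid, the death receptor Fas fell by 1.54 (adjusted p = 0.0267) and Cflar, which restrains caspase-8, fell by 1.45 (adjusted p = 0.0312), the 2 called of 3 tested. Among enzymes that modify BCL2 family proteins 3 of 7 were called lower. Akt1, a kinase that phosphorylates Bad, fell by 1.89 (adjusted p = 0.016), Gsk3b, a kinase that marks Mcl1 for degradation, fell by 1.38 (adjusted p = 0.0486) and Huwe1, a ligase that ubiquitinates Mcl1, fell by 1.11 (adjusted p = 0.0483). Of 6 tested transcription factors of family genes, Stat5b, a cytokine-driven activator of Bcl2l1, fell by 1.60 (adjusted p = 0.016) and Rela, an NF-kappaB subunit, fell by 1.14 (adjusted p = 0.038). Gata1, a transcription factor that binds GATA motifs, was at 4.23 and 12.55 FPKM in Ctrl 1 and Ctrl 3 and at 3.42 and 3.06 FPKM in Nar 1 and Nar 3. Its log2 fold change of -1.15 was not called (limma adjusted p = 0.112). Gata1 was highest in Ctrl 3, as Bcl2l1 was, but its naringenin values lay below both controls and those of Bcl2l1 did not. The platelet markers were also highest in Ctrl 3, and which cells the Gata1 RNA came from was not tested.

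**Figure D5:**
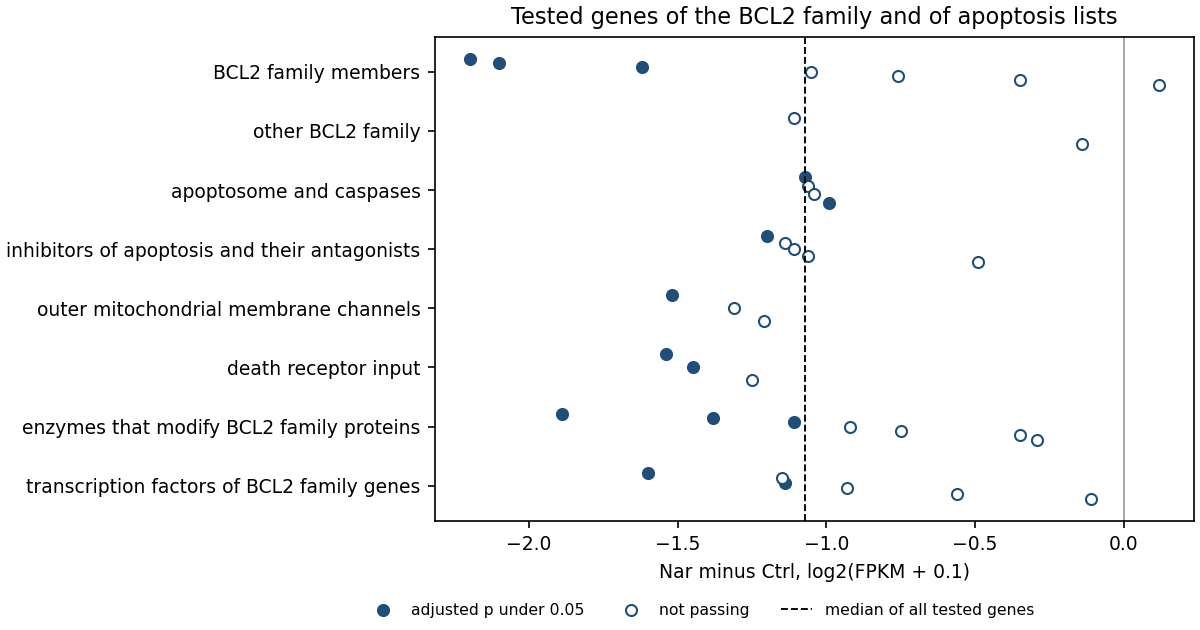
Log2 fold change of Nar against Ctrl on the log2(FPKM + 0.1) scale for the 7 tested BCL2 family members (top) and the tested genes of the 7 apoptosis lists, with called genes filled and a dashed line at the median of all tested genes (-1.07). The 11 called genes of the lists lie at or below -0.99, and Bnip3l lies near 0 at -0.14.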

How the data were processed

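Oligo(dT)-selected RNA of mouse blood was sequenced by the authors and the deposited values are FPKM per gene with 2 decimals, 1 column for each of 4 libraries. The submitters' processing notes name TopHat2, Cufflinks and GRCm38, whereas the study's methods name bowtie-2 for alignment. Annotation and filters were not given in the sources used here. Columns of the authors' own comparisons (fold changes and p-values) were not used, and counts were not used here. The steps in FPKM of short genes were too blurred to recover whole reads: 56.2% to 64.5% of values lay within 0.2 fragment of a whole number, where an even spread gives 40%, although the step was picked for the best match.

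Genes with a mean of at least 0.5 FPKM were tested with limma 3.58.1 in R 4.3.3 (lmFit, eBayes with trend, two-sided) on log2(FPKM + 0.1), with group as the only term. Single ratios were compared by exact permutation tests. The code was tested on simulated data. Named genes were the 10 members, up to 3 called genes with the largest change or, where none was called, the highest gene from each list, and the 3 nearest profiles. Alas2, Csf3r, Slc4a1, Bbc3, Bcl2l15 and Gata1 were named after their values were seen. Members, lists and tests were chosen with earlier results of these data known. Alternatives were pseudocounts of 0.01 and 1, no filter, a minimum of 5 FPKM, TPM, removal of haemoglobin genes, median-of-ratios scaling, no trend, a replicate block, leaving out each library, and, chosen after seeing the data, a crossed block and errors of both genes. Promoter and transcript sequences were read from RefSeq and GENCODE M21 tables.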

Additional observations from a re-analysis of the deposited data

How the results depend on the processing

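Of 3 members called lower, 3 were also called with either other pseudocount, as TPM, without the trend and with a replicate block, 2 after haemoglobin genes were removed, 1 with a minimum of 5 FPKM (2 tested), 0 without a filter (7 of 10 at an unadjusted p under 0.05 in limma), 0 under median-of-ratios scaling (1 of 7 at an unadjusted p) and 0 to 1 without any one library. Calls over all tested genes moved with them, from 39.8% to 5.27% without haemoglobin genes, 10.8% with a minimum of 5 FPKM, 0 of 16382 genes without a filter, 0.468% under median-of-ratios scaling, 0% without Ctrl 1 or Ctrl 3, 4.85% without Nar 1 and 3.99% without Nar 3. For the unadjusted counts no share over all genes was taken under these settings, so they are a description only. In the block fit 1802 genes were called lower and 13 higher, against 2113 and 10 without it. Over genes, the difference of Ctrl 1 from Ctrl 3 and that of Nar 1 from Nar 3 had a correlation of -0.153. With 1 such difference in each group, this cannot show whether the numbers mark pairs. The main test had no block because the study's methods name none. A crossed block, chosen after seeing the data, gave 4 members, 3211 lower and 22 higher genes.

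Of 2 members called against Bcl2l1, 1 was called with a pseudocount of 1, 1 with a minimum of 5 FPKM (Mcl1, the 1 tested), 1 with the replicate block, 4 with the crossed block, 0 without the trend, 0 with the errors of both genes and 0 to 5 without any one library. Mcl1 minus Bcl2l1 was -2.22 (adjusted p = 0.0957) without the trend, -2.22 (adjusted p = 0.126) with the errors of both genes and -3.02 to -1.43 without any one library. The log2 fold change of Mcl1 was -2.10 (adjusted p = 0.113) without a filter, -1.01 (adjusted p = 0.365) under median-of-ratios scaling and -2.32 to -1.89 without any one library. That of Bcl2l1 was -0.46 to 0.70 without any one library. The median of the 10 members was -0.47 with a pseudocount of 1, -0.49 without haemoglobin genes, 0.00 under median-of-ratios scaling and -1.22 to -0.83 without any one library. The summed Bcl2a1 change against Bcl2l1 kept its sign under every alternative tried (-2.71 to -0.80 without any one library). Signs turned, with no call, for Bax (0.28) and Bid (0.01) under median-of-ratios scaling, for Bcl2a1d under it (0.04), with a pseudocount of 0.01 (0.31) and without Ctrl 1 (0.87), and for Bad under it (0.60), without haemoglobin genes (0.13) and without Nar 3 (0.09, the top of its range of -0.79 to 0.09 without any one library). Of the other genes named, Bnip3l turned to 0.97 under median-of-ratios scaling. The cause of these changes was not tested.

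With 2 libraries a group, an exact permutation test cannot go below 0.33, and a fit without 1 library takes its spread from the other group. The single copies Bcl2a1a, Bcl2a1c and Bcl2a1d stood for at most about 10 fragments in any library.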
